A study of Arabidopsis thaliana with 36 samples.

Results

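Arabidopsis genes whose mRNA stood higher in rosettes at the end of a cold treatment, and still stood higher 2 and 4 days after the return to warmth, are described here. They were chosen from the measured values. Reads per gene were scaled to each library's total (CPM), turned into log2(CPM + 1) and averaged over the 9 libraries of each condition. A gene became a member when its ACC, Deacc2 and Deacc4 means were each at least 1 above its NonA mean and its ACC mean was at least 3, with organellar genes dropped. This gave 392 members among the 34262 genes in the files. They are 3.15% of the 12460 nuclear genes that met the ACC minimum and 9.34% of the 4196 whose ACC mean was also at least 1 above NonA. All 392 are annotated as protein coding, all passed the low-count filter used for the tests, and 241 have a symbol beyond their locus ID.

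RNA of whole rosettes was sequenced in 36 libraries, 3 for each of 12 groups of line and condition. The lines were mbf1c and jub1, mutant lines named for the transcriptional coactivator gene MBF1C and the NAC transcription factor gene JUB1, and the wild type Col0; the labels give no allele for either mutant. All plants entered the experiment at an age of 28 days, in soil, with several plants to a pot. NonA rosettes were taken before cold, in long days at 20 °C by day and 200 µE of light. ACC rosettes had spent 3 days at 4 °C and 90 µE, Deacc2 rosettes a further 2 days and Deacc4 rosettes a further 4 days back in the long-day conditions. Light and temperature therefore changed together at ACC, and plants were older at each later stage than at NonA, so these cannot be told apart from the cold treatment. The labels call the libraries of a group biological replicates. The title of each library gives the number of its experiment, 1 to 3, which every line and condition shares and which is the replicate number used below; what made an experiment is not stated.

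During cold acclimation, Arabidopsis remodels its transcriptome within hours to days: CBF transcription factors switch on COR genes, soluble sugars build up and cell walls and membranes are altered. During deacclimation, at warm temperature, most of these changes run back and freezing tolerance is lost. Genes that stay high after the cold are of interest as possible carriers of a memory of it, or as parts of the regrowth that follows. Because the rule itself required ACC, Deacc2 and Deacc4 to exceed NonA, those differences are given below as a description, with no test.

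Libraries held 14407060 to 63178347 counts in genes, and 21324 to 23256 genes were detected in each. Leaf markers summed to 22000 to 65800 CPM over all libraries, with a median of 59900 at NonA, 28400 at ACC, 56800 at Deacc2 and then 46300 at Deacc4. Floral organ markers summed to 0.752 to 2.52 CPM and root markers to 23.9 to 66.9 CPM. The root markers stood at a median of 34 CPM at NonA, 58.6 at ACC, 44.7 at Deacc2 and then 51.5 at Deacc4. PLT1, which marks the root stem cell niche, was at 0 in every library. Their part in the results was not tested. Bulk RNA cannot tell fewer cells of a type apart from less RNA per cell.

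The libraries differed in how strongly long and short transcripts were represented, and this touches nearly every value below. Across the tested genes, log2 CPM changed per doubling of exonic length by -0.761 to 0.471, depending on the library. The slope averaged -0.334 ± 0.289 at NonA, 0.269 ± 0.157 at ACC, 0.0733 ± 0.266 at Deacc2 and then -0.00791 ± 0.288 at Deacc4 (SD, n = 9 each). The members are long: their median exonic length was 4130 bases (760 to 15766), against 1750 for all tested genes, and their median number of introns 13, against 4. Genes that were higher at ACC but under the threshold at both deacclimation times numbered 3573 and had a median length of 2297 bases. The 44 genes that were lower by at least 1 at all 3 stages had a median of 1053 bases.

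**Figure D1:**
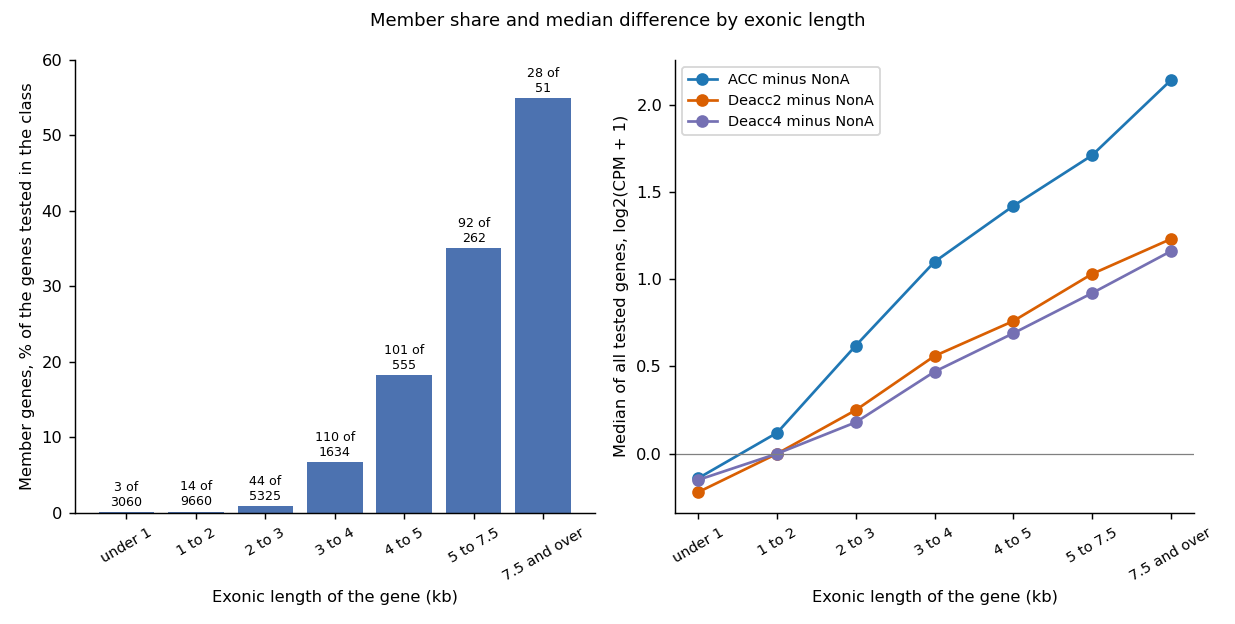
Left, bars give the member genes as a percentage of the tested genes in each class of exonic length (kb), with the counts above the bars. Right, points give the median difference from NonA of all tested genes in each class, on the log2(CPM + 1) scale; both the member share and the median differences are larger in each longer class.

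The share of tested genes that were members was 0.098% under 1 kb, 0.145% from 1 to 2 kb and 0.826% from 2 to 3 kb. It was 6.73% from 3 to 4 kb, 18.2% from 4 to 5 kb, 35.1% from 5 to 7.5 kb and 54.9% above that. The Deacc4 minus NonA median over every tested gene in those same classes ran from -0.15 in the shortest to 1.16 in the longest. In the longest class the median over all genes was above 1 at each of the 3 stages.

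In each library, the mean log2(CPM + 1) of the 392 members lay close to a line on that library's length slope. Pearson's r was 0.977 and Spearman's rho 0.963 over the 36 libraries, and r was 0.969 without the 2 libraries farthest from the median slope. Within a condition, r over 9 libraries was 0.991 for NonA, 0.97 for ACC, 0.977 for Deacc2 and 0.963 for Deacc4, the last being 0.664 without the 2 farthest. These are descriptions: both measures come from the same libraries, and the members are among the genes behind the slope.

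**Figure D2:**
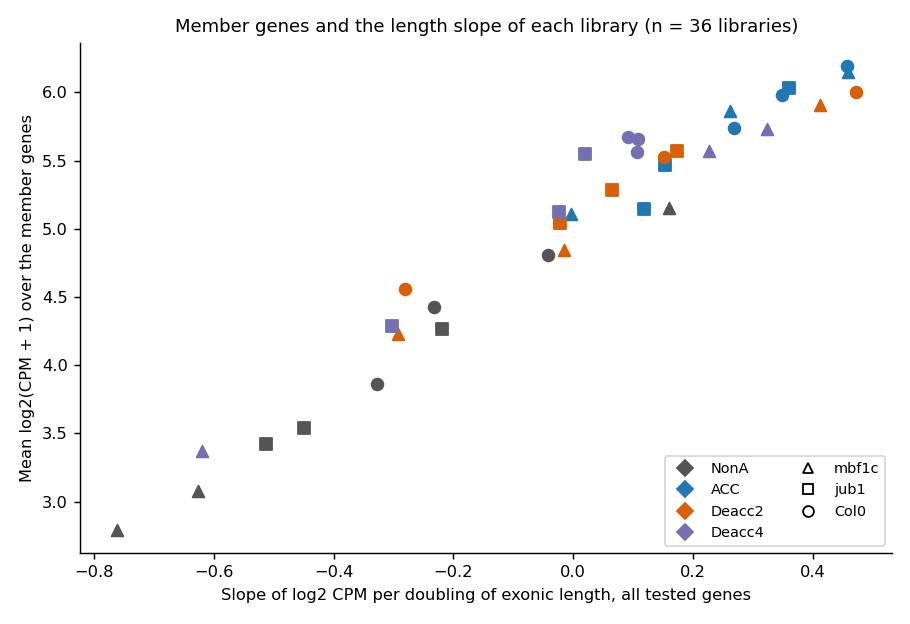
Each point is 1 library, with its length slope, the change in log2 CPM over all tested genes for each doubling of exonic length (x), and the mean log2(CPM + 1) of the 392 members (y), colours giving the condition and shapes the line. The member means run from 2.79 to 6.2, and the NonA libraries lie mostly at the lower left.

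Among the NonA libraries, the member mean was 5.16, 2.79 and 3.08 in the 3 mbf1c libraries, 3.54, 4.26 and 3.42 in the jub1 libraries and 4.81, 4.43 and 3.86 in the Col0 libraries. The second mbf1c NonA library had the lowest slope of all 36 and the lowest member mean. Without it the rule found 195 members, and without the third mbf1c NonA library 235. Without the first mbf1c NonA library, which had the highest slope at NonA, it found 643.

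To see which members also stood out among genes of their own length, a smooth trend of each library's log2 CPM against exonic length was taken out and the rule applied again. It then found 41 genes, 30 of them among the 392. Their median length was 1889 bases, against 4223 for the other 362 members. The trend was fitted to each library's deviations from the gene means, so it also takes out any response of the plants that follows length. The 30 are described first, then the long members by role.

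**Figure D3:**
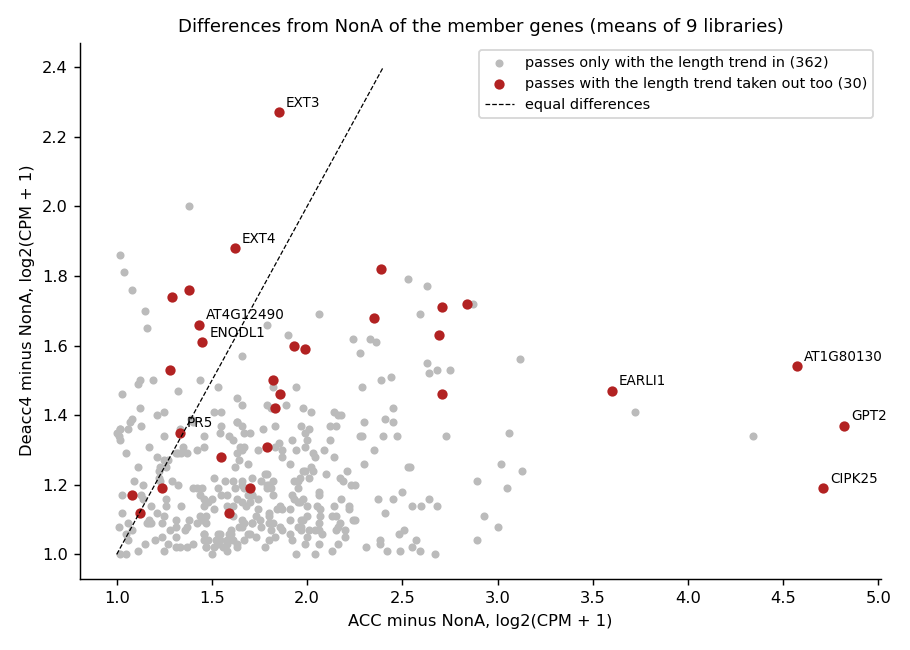
Each point is a member gene, with its ACC minus NonA difference (x) and its Deacc4 minus NonA difference (y) in log2(CPM + 1), from means of 9 libraries; red points are the 30 members that pass with the length trend taken out as well. EXT3 has the highest Deacc4 difference, 2.27, while GPT2, CIPK25 and AT1G80130 combine ACC differences above 4 with Deacc4 differences of 1.37, 1.19 and 1.54.

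Several of the 30 are proteins of the cell wall. EXT3 (AT1G21310) and EXT4 (AT1G76930) encode extensins, hydroxyproline-rich glycoproteins that are cross-linked into the wall, and PRP4 encodes a proline-rich wall protein. The bases upstream of both extensin genes are shown with those of 2 further short members, EARLI1 and PR5, because these genes kept their place with the length trend out and have courses described below. Each sequence holds the 250 bases before the annotated start of the gene, read 5′ to 3′ on the gene's strand from the RefSeq assembly TAIR10.1. The motifs searched, on both strands, were CCGAC (the core of the CBF site), ACGTG (the core of abscisic acid response elements), CACGTG (the G-box, which contains ACGTG), AAAATATCT (the evening element), TTGAC (the core of the WRKY W-box), AAACCCTA (the telo-box) and AGCCGCC (the GCC-box). Capitals mark matches, and a match on the opposite strand appears as its reverse complement.
EXT3, chr1:7455010-7455259, minus strand: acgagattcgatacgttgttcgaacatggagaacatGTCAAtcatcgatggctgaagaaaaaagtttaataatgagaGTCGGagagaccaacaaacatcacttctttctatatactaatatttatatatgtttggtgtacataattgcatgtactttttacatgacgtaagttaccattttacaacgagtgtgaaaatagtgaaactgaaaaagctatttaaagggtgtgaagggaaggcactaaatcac
EXT4, chr1:28897121-28897370, minus strand: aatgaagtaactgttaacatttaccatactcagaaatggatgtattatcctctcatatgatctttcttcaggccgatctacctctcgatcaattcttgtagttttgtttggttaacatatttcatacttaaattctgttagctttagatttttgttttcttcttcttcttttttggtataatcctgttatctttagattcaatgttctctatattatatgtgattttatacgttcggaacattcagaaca
EARLI1, chr4:7406995-7407244, minus strand: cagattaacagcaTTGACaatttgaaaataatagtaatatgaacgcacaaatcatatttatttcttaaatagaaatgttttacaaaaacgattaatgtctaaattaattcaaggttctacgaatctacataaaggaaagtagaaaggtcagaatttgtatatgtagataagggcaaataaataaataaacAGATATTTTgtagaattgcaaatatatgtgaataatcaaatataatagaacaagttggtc
PR5, chr1:28177420-28177669, plus strand: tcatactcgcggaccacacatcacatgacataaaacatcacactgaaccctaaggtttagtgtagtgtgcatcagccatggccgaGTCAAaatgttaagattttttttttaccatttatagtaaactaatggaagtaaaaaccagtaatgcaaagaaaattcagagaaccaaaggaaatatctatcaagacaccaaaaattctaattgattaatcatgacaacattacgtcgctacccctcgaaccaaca
The EXT3 window holds CCGAC and TTGAC, both on the other strand, and the EXT4 window none of the motifs. The EARLI1 window holds TTGAC and, on the other strand, AAAATATCT, and the PR5 window holds TTGAC on the other strand. Over all members the shares were close to those of the 19972 tested protein-coding genes. CCGAC was in 13.5% of the members' windows, against 12.9%, ACGTG in 23.7%, against 23.5%, and CACGTG in 7.14%, against 7.37%. AAAATATCT was in 3.57%, against 2.53%, TTGAC in 42.9%, against 45%, AAACCCTA in 2.3%, against 3.55%, and AGCCGCC in 0.51%, against 0.576%. Such matches are letters in a window and say nothing about binding.

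EXT3 had 21.2, 50.3 and 143 CPM (lowest, median and highest of 9 libraries) at NonA, 109, 197 and 300 at ACC, 53.4, 286 and 661 at Deacc2 and then 64.3, 321 and 692 at Deacc4. Its median was higher at each later stage and its range wider, and at both deacclimation times the lowest library lay below the highest NonA library. By line, EXT3 at Deacc4 averaged 195 ± 123 CPM in mbf1c, 269 ± 184 in jub1 and 453 ± 216 in Col0, and at NonA 36.5 ± 14.6, 38.3 ± 17 and 110 ± 43.7 in the same lines (SD, n = 3 each). EXT4 had a median of 40.5 CPM at NonA, 124 at ACC, 162 at Deacc2 and then 184 at Deacc4. Of the exonic bases of EXT3, 29.2% also lie in a gene on the opposite strand. Where the annotation used for counting holds both genes, unstranded reads in those bases are ambiguous and stayed out.

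Of the other wall proteins among the 30, PRP4 and WAK1 had smaller differences. PRP4 had a median of 540 CPM at NonA, 1410 at ACC, 899 at Deacc2 and then 1160 at Deacc4. WAK1, a receptor-like kinase that binds pectin in the wall, had medians of 44.6, 193, 149 and 169 CPM at the same stages. AT4G26750, which is annotated as a hydroxyproline-rich glycoprotein, had 12.4, 33.0, 29.9 and 49.1 CPM. That name alone does not place its protein in the wall. In all 3 the Deacc4 median exceeded the NonA median while libraries of the 2 conditions overlapped.

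The 2 lipid-transfer proteins among the members, EARLI1 (AT4G12480) and AT4G12490, lie near each other on chromosome 4 and differed in timing. EARLI1 had 10.2, 20.3 and 37.7 CPM at NonA, 175, 290 and 446 at ACC, 33.0, 52.7 and 92.5 at Deacc2 and then 30.3, 61.6 and 127 at Deacc4. Every ACC library stood above every library of the other conditions. AT4G12490 had medians of 10, 37, 35.1 and 33.5 CPM at the 4 stages and so showed no such peak; 35.9% of its exonic bases lie opposite another gene. Of the 48 tested genes annotated as lipid-transfer proteins these 2 were members, and the median Deacc4 difference over the 48 was -0.09.

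PR5, a thaumatin-like protein and a classical marker of salicylate defence, varied widely between libraries of a group. It had 98.7, 253 and 836 CPM at NonA, 152, 807 and 1570 at ACC, 121, 1050 and 2120 at Deacc2 and then 111, 751 and 1620 at Deacc4. The 3 mbf1c libraries at Deacc4 held 111, 1420 and 970 CPM and those at NonA 98.7, 418 and 118, so the lowest Deacc4 library was level with NonA. PR5 was the sole member among the 17 tested genes of the salicylate list, whose median difference was -0.03 at ACC, 1.40 at Deacc2 and 0.83 at Deacc4.

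ENODL1, an early nodulin-like arabinogalactan protein of the cell surface, was the member with all 9 Deacc4 libraries above all 9 NonA libraries. It had 1.32, 3.34 and 4.68 CPM at NonA, 5.38, 7.42 and 20.8 at ACC, 2.15, 13.7 and 20.0 at Deacc2 and then 4.92, 10.1 and 22.7 at Deacc4. No other member separated at Deacc4, and none at Deacc2. Over all tested genes the same separation was met by 0.387% at Deacc4 and 0.614% at Deacc2. At ACC it was met by 111 of the 392 members and by 18.2% of all tested genes. The rule used each of these differences from NonA, so nothing is read from the separations, that of ENODL1 included.

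Other members of the 30 have roles at membranes, in auxin response and in protein folding. ANNAT1, an annexin that binds membranes with calcium, had medians of 170 CPM at NonA, 582 at ACC, 426 at Deacc2 and then 501 at Deacc4. PLDALPHA1, the most abundant phospholipase D of leaves, had 103, 488, 315 and 439 CPM. CNX1, a calnexin that folds glycoproteins in the endoplasmic reticulum, had 117, 372, 306 and 289 CPM. CDC48, an ATPase that extracts proteins for degradation, had 132, 509, 413 and 417 CPM. In each of these 4 genes the Deacc4 median was above the highest NonA library, while the lowest Deacc4 library was not. UGT87A2, a glycosyltransferase, GLR2.7, a glutamate receptor-like channel, D6PKL2, a kinase related to the D6 kinases that activate auxin transport, and NPH4, the auxin response factor ARF7, had Deacc4 differences of 1.76, 1.68, 1.28 and 1.71. AT2G25510, annotated as uncharacterized, averaged 2660 ± 902 CPM at Deacc4, against 1180 ± 402 at NonA (SD, n = 9 each). CPM is not corrected for length, so levels of different genes are not compared.

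**Figure D4:**
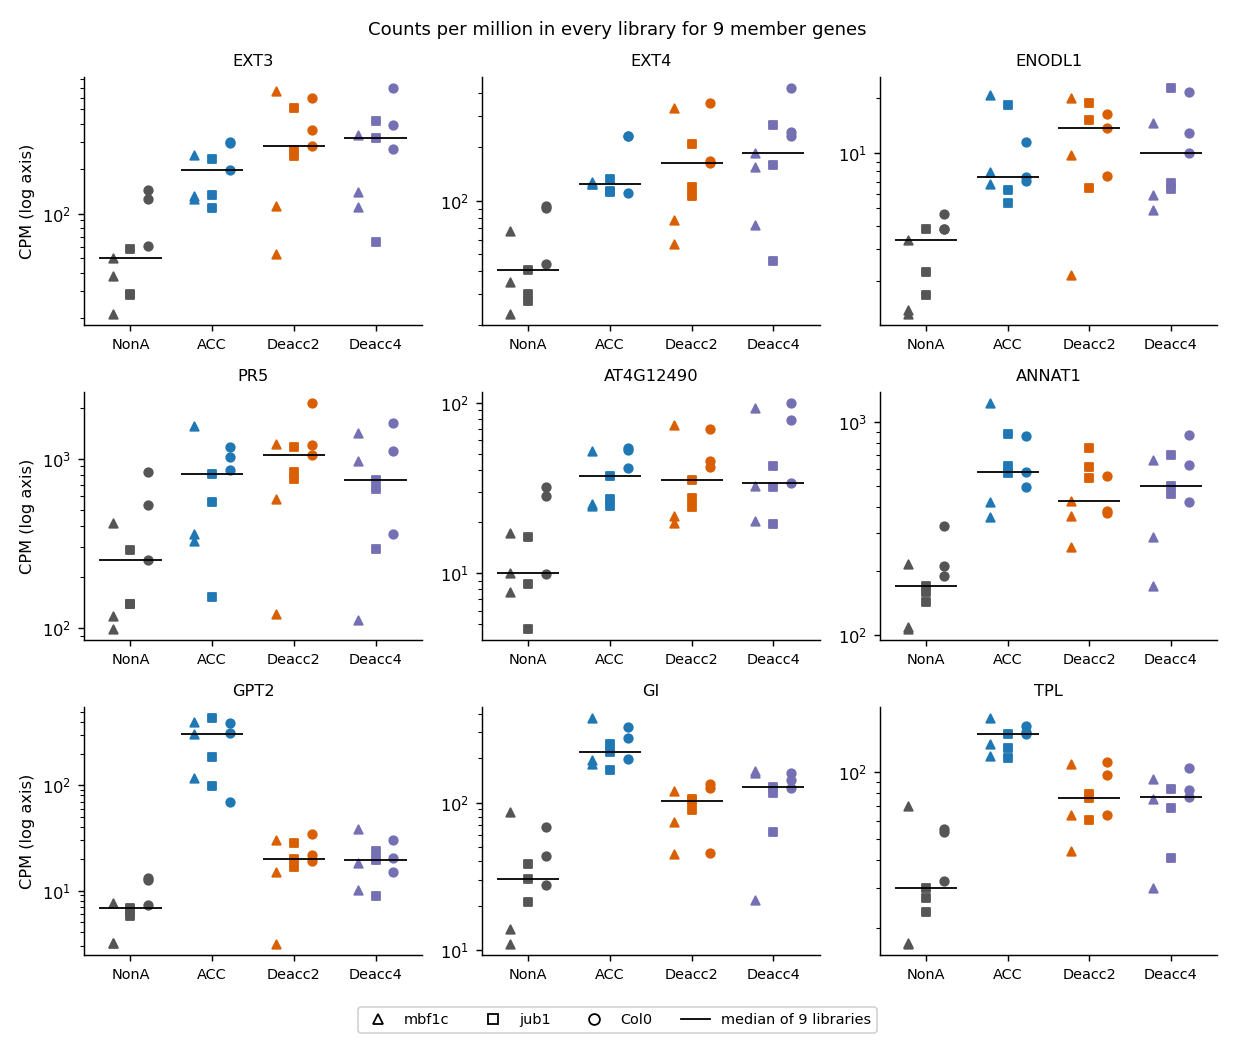
CPM in every library (log axis) for 9 members, with the 4 conditions from left to right, shapes giving the line and black bars the median of 9 libraries. The medians of GPT2, GI, TPL and ANNAT1 are highest at ACC, the extensins EXT3 and EXT4 have their highest medians at Deacc4, and in all panels except ENODL1 some Deacc4 libraries lie within the range of NonA.

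Sugar and starch metabolism supplied the largest number of members of any list, 5 of 23 tested genes, where 392 of all 20679 tested genes were members. Its genes had a median exonic length of 2797 bases, against 1750 for all tested genes. Of the 5, GPT2 alone passed with the length trend out. The list had a median difference of 1.42 at ACC, 0.74 at Deacc2 and 0.40 at Deacc4, beside 0.30, 0.06 and 0.06 over all tested genes. SUS1, a sucrose synthase that splits sucrose, had 16.1, 25.2 and 56.6 CPM at NonA, 316, 361 and 487 at ACC, 42.8, 72.8 and 104 at Deacc2 and then 36.2, 79.9 and 141 at Deacc4. It was far above NonA in every ACC library and overlapped with NonA afterwards. GPT2, which imports glucose 6-phosphate into plastids, had medians of 6.76 CPM at NonA, 309 at ACC, 19.8 at Deacc2 and then 19.7 at Deacc4. The sucrose phosphate synthases SPS1F and SPS2F, which make sucrose, had Deacc4 differences of 1.21 and 1.01 after ACC differences of 2.89 and 2.59. SEX1, the glucan, water dikinase that starts starch breakdown, had medians of 57.1, 401, 239 and 203 CPM at the 4 stages. CT-BMY, the chloroplast beta-amylase that releases maltose at night, is a further member, with 51.9, 1170, 110 and 118 CPM; 25.2% of its exonic bases lie opposite another gene.

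GI (GIGANTEA), a large protein of the circadian clock and of flowering, was the sole member in each of the clock and flowering lists, which had 20 and 24 tested genes. It had 11, 30.3 and 86.5 CPM at NonA, 167, 220 and 372 at ACC, 44.9, 103 and 133 at Deacc2 and then 21.7, 128 and 163 at Deacc4. All ACC libraries exceeded all NonA libraries, and a single Deacc4 library, mbf1c number 2 at 21.7 CPM, lay below the NonA median. That library had a length slope of -0.62, the lowest outside NonA.

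Regulators of transcription and chromatin made up a further group, most of them long genes, and were gathered by annotation after the members were seen. TPL, TPR1, TPR2 and TPR3, corepressors of the TOPLESS family found by their annotated names, passed the rule, with Deacc4 differences of 1.02 to 1.63. A search by name may have missed other genes of the family, so no share of the family is given. TPL had medians of 30 CPM at NonA, 148 at ACC, 76.3 at Deacc2 and then 77.1 at Deacc4. TPR2 alone of the 4 passed with the length trend out. Of the 4 CBP-type histone acetyltransferases found by annotated name, HAC1, HAC5 and HAC12 were members, with Deacc4 differences of 1.3, 1.1 and 1.17. The SWI/SNF ATPases BRM and SYD, and CHR4, CHR5 and CHR11, were members among 17 tested chromatin remodelling ATPases, whose median Deacc4 difference was 0.64. None of the HAC or remodelling members passed with the trend out. The 4 acetyltransferases and the 17 ATPases had median exonic lengths of 5958 and 4132 bases. Of all tested genes, 35.1% from 5 to 7.5 kb and 18.2% from 4 to 5 kb were members.

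NRPB1, the largest subunit of RNA polymerase II, had 5.9, 19.2 and 94.6 CPM at NonA, 73.1, 123 and 192 at ACC, 29.9, 66.6 and 154 at Deacc2 and then 6.42, 115 and 132 at Deacc4. Its libraries at Deacc4 spanned nearly the whole range seen at NonA. Of 31 Mediator subunits, which link polymerase II to transcription factors, 6 were members, and their median length was 5080 bases against 1334 for all 31. They included SFR6, a subunit needed for the expression of cold-regulated genes, with a Deacc4 difference of 1.09. NRB4, the subunit MED15a, had medians of 9, 58.7, 34.8 and 50.4 CPM at the 4 stages and passed with the trend out. The chromatin list held 4 members of 19 tested, BRM, SYD and the DNA glycosylases DML1 and DME, which remove methylated cytosine. DML1 and DME had medians of 25 and 37.5 CPM at Deacc4, against 6.34 and 8.92 CPM at NonA.

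Callose synthases and the machinery of membrane traffic supplied further members, most of them long genes. CALS1, GSL03, GSL05, GSL8 and GSL10 were members of 12 tested callose synthases, which make the glucan laid down at plasmodesmata, cell plates and sites of infection. The 12 had a median of 6318 exonic bases, and 35.1% of all tested genes from 5 to 7.5 kb were members. CALS1 had medians of 10.7 CPM at NonA, 64.9 at ACC, 46.7 at Deacc2 and then 36.8 at Deacc4. CESA1, a subunit of the complex that makes cellulose of primary walls, had 162, 401, 368 and 539 CPM. Both clathrin heavy chains found by annotated name, AT3G08530 and AT3G11130, were members. So were 4 of 8 adaptins and 4 of 5 SEC7 exchange factors found that way, among them GN (GNOM), which recycles auxin carriers. The search by name may have missed genes of any family in this paragraph, members included, so these counts are not shares of whole families. The clathrin genes had Deacc4 differences of 1.40 and 1.23. FAB1A, FAB1B and FAB1D, lipid kinases of endosomes and vacuoles, were members of 4 tested. Of 13 tested phospholipases D 4 were members, and of 98 tested ABC transporters 10, with median Deacc4 differences of 0.87 and 0.22 over all those tested. The tested FAB1 kinases, clathrin chains and SEC7 factors had medians of 6226, 5832 and 5409 exonic bases, in the same class as the callose synthases. The adaptins, phospholipases D and ABC transporters had 3512, 3223 and 3028, and 6.73% of all tested genes from 3 to 4 kb were members. Nothing is read from these counts. Apart from PLDALPHA1, ABCC4 and ABCA7, no member of the families in this paragraph passed with the length trend out.

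Large enzymes of central and mitochondrial metabolism were also present. GLDP1 and GLDP2, the P subunits of glycine decarboxylase in photorespiration, had medians of 343 and 94.5 CPM at NonA, 2360 and 746 at ACC, 987 and 237 at Deacc2 and then 730 and 221 at Deacc4. The E1 subunits of 2-oxoglutarate dehydrogenase, AT3G55410 and AT5G65750, differed in course. AT3G55410 had medians of 43.2, 302, 121 and 124 CPM at the 4 stages, with its peak at ACC. AT5G65750 had 14.4, 38.4, 44.2 and 52.3 CPM, with no such peak. CLPC1, a chaperone of chloroplast protein import and turnover, had 395, 1540, 900 and 993 CPM. The plasma membrane proton pumps HA1 and HA2 had Deacc4 differences of 1.04 and 1.2.

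Growth, nutrient and protein-quality regulators completed the list members. TOR, the kinase that couples nutrients to growth, had medians of 9.28 CPM at NonA, 48.9 at ACC, 40.6 at Deacc2 and then 48.2 at Deacc4; it stood in the ribosome biogenesis list, which it governs without being a factor of assembly itself. RBR1, the retinoblastoma homologue that restrains the cell cycle, had 11.3, 70.7, 31.4 and 31.4 CPM. PHO2, which limits phosphate uptake, and BTS, which limits the iron deficiency response, had Deacc4 differences of 1.1 and 1.04. The endoplasmic reticulum chaperones BIP1 and BIP2 had differences of 1.13 and 1.17. Their transcripts were 97.2% identical over 2122 aligned bases. Reads that fit both genes equally are multimapping and stayed out, so the counts of both are uncertain. In all, 18 of 485 tested genes from 31 lists were members. Over all tested genes, 392 of 20679 were members. No member came from 20 of the lists, among them the cold regulon (20 tested genes), flavonoid synthesis (17) and photosynthesis (20). These 3 lists had median exonic lengths of 1304, 1632 and 1347 bases, and 0.145% of all tested genes from 1 to 2 kb were members. Nothing is therefore read from their lack of members.

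The cold regulon and flavonoid lists had median differences of 1.19 and 2.88 at ACC and of 0.32 and -0.21 at Deacc4. Among long-gene families outside these lists, UPL1, UPL2 and KAK were members of 7 HECT ubiquitin ligases. UPL1, at 11404 bases of exons, had 2.85, 10.4 and 70.7 CPM at NonA, 34.3, 89.0 and 135 at ACC, 16.3, 49.2 and 122 at Deacc2 and then 3.62, 68.5 and 81.9 at Deacc4. Its lowest Deacc4 library was close to its lowest NonA library.

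Over all members, the median difference from NonA was 1.74 at ACC (1.00 to 4.82), 1.25 at Deacc2 (1.00 to 2.41) and 1.19 at Deacc4 (1.00 to 2.27). The scale matters at ACC, where the median of all tested genes was 0.30 in CPM and 0.00 with TMM factors, which centre libraries on their common genes. With TMM factors the members' medians were 1.34, 1.13 and 1.09. The largest difference was at ACC for 327 members, at Deacc2 for 39 and at Deacc4 for 26. At Deacc4, 43 members had a difference of at least 1.5 and EXT3 and AT2G35050, a kinase with an octicosapeptide domain, at least 2.

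The lines contributed unequally. Taken alone, the mbf1c libraries passed 333 members, the jub1 libraries 311 and the Col0 libraries 129, and 98 members passed in each line. The median Deacc2 difference was 1.29 in mbf1c, 1.49 in jub1 and 0.96 in Col0, and the median Deacc4 difference 1.18, 1.2 and 1.24. The libraries numbered 1 alone passed 13 members, those numbered 2 passed 191 and those numbered 3 passed 243, with 11 in common. At NonA the length slope averaged -0.11 in the libraries numbered 1, -0.404 in those numbered 2 and -0.489 in those numbered 3.

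Just inside the threshold lay AT1G22930, RCD1 and AT4G32640, with smallest differences of 1.00 each, and just outside it WRKY18, PDIL1-3 and CPL3, with smallest differences of 1.00 at this rounding. Members stood on all 5 chromosomes, as 1.62% to 2.04% of the tested genes of each. Of the members, 14 formed 7 adjacent pairs: EER4 with AT1G17450, emb1507 with AT1G20970, ABCC1 with ABCC12, AT1G35710 with ANNAT1, VCR with VCS, SUO with AT3G48060, and AT4G12770 with AT4G12780. A near-identical copy, at 95% identity or more over at least 200 bases, was found for 11 members, among them UPL1, UPL2, SUO, ECA1 and RPP5, whose counts are uncertain for that reason. Some exonic bases lay opposite another gene in 97 members, and over 25% of them in 7.

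Whether members changed further between the end of cold and the later stages was tested with edgeR over all 20679 genes, averaged over the 3 lines. The rule set the same floor under ACC, Deacc2 and Deacc4, which limited both falls and rises relative to ACC, so nothing is read from the members' shares against those of all genes. At Deacc2 relative to ACC, 30 of the 392 members rose (7.65%), where 32.5% of all genes did, and 46 fell (11.7%), where 32.3% did. At Deacc4 relative to ACC, 23 rose (5.87%), against 33.3% of all genes, and 52 fell (13.3%), against 34.3%. Of the members that fell, 41 did so at both stages, and of those that rose, 17. The median fold change of the members was -0.10 and -0.15 on the log2 scale, beside -0.008 and -0.022 over all genes. The sign of these medians turned with the length trend out, to 0.256 and 0.315, beside 0.021 and 0.018 over all genes. In log2(CPM + 1) without TMM factors the members' medians were -0.50 and -0.54, beside -0.22 and -0.24 over all genes. The Deacc2 median was also 0.052 without the libraries numbered 1, -0.507 without those numbered 2 and 0.009 without those numbered 3. With the length trend taken out, 181 members rose and 50 fell at Deacc2, where 35.3% of all genes rose and 33.8% fell. At Deacc4 202 rose and 49 fell, where 36.4% and 35.1% of all genes did. The counts depended on single replicate numbers. At Deacc2, 5 members rose without the libraries numbered 2, and 15, 142 and 21 fell without those numbered 1, 2 and 3. At Deacc4, 7 and 8 rose without those numbered 1 and 3, and 23 fell without those numbered 1.

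Of the members that fell, those named here include enzymes of carbon use and a calcium-regulated kinase. AT1G80130, a tetratricopeptide repeat protein, had medians of 13.1 CPM at NonA, 327 at ACC, 25.9 at Deacc2 and then 41.6 at Deacc4. It fell by 3.25 ± 0.263 at Deacc2 and by 2.66 ± 0.256 at Deacc4 (log2 fold change ± SE, adjusted p 2.13e-11 and 6.24e-10). SUS1 fell by 2.13 ± 0.225 and 1.92 ± 0.223, with adjusted p 3.57e-09 and 1.94e-08. CT-BMY fell by 2.96 and 2.57 and GPT2 by 3.26 and 3.27. CIPK25, a kinase regulated by calcium sensors, had a median of 5.8 CPM at Deacc4, against 64.9 at ACC, and fell by 3.44 and 3.29. EARLI1 fell by 2.16 and 1.79, SPS2F by 1.30 and 1.35 and SPS1F by 1.11 and 1.30. All of these stayed called in every alternative run.

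In the same contrasts GLDP2 fell by 1.16 ± 0.289 at Deacc2 (adjusted p 0.000951) and by 1.51 ± 0.292 at Deacc4 (adjusted p 4.91e-05). AT3G55410 fell by 1.05 and 1.01, with adjusted p 0.00099 and 0.00129. RBR1 fell by 1.02 and 1.11, with adjusted p 0.00418 and 0.00191. At Deacc2 the GLDP2 call was lost without the libraries numbered 1 (adjusted p 0.0583) and the RBR1 call without those numbered 1 or 3 (0.0958 and 0.0506). GI fell by 1.07 ± 0.297 at Deacc2 (adjusted p 0.00247) and 0.73 ± 0.295 at Deacc4 (adjusted p 0.0299). The Deacc4 call of GI was lost without the libraries of any 1 number, at adjusted p 0.118, 0.0565 and 0.0636, and with no low-count filter, at 0.0505, and the Deacc2 call without those numbered 3, at 0.0516. TPL fell by 0.55 and 0.68, with adjusted p 0.0137 and 0.00285. With the length trend out its values were -0.16 and -0.17, with adjusted p 0.303 and 0.286, and its Deacc2 call was also lost without the libraries numbered 1 or 3 (0.102 and 0.21).

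Members that rose further after cold did so by smaller amounts. At Deacc4, PDE331, a protein with an octicosapeptide domain, rose by 1.19 ± 0.251 over ACC (adjusted p 0.000141), with 8.69, 14.3 and 30.1 CPM at NonA, 27, 32.2 and 42.6 at ACC, 22.8, 41.2 and 72.9 at Deacc2 and then 20.8, 60.3 and 118 at Deacc4. AT5G14920, a member of the gibberellin-regulated GASA family with a proline-rich domain, rose by 1.2 ± 0.27 (adjusted p 0.000306), with medians of 210, 411, 448 and 895 CPM at the 4 stages. AT3G01560, AT2G43160 (an ENTH domain protein of vesicle coats) and AT5G01950 (a leucine-rich repeat kinase) rose by 1.08, 0.66 and 0.82. At Deacc2, the subtilase SBT3.5 rose by 1.26 ± 0.302 (adjusted p 0.00061), with medians of 6.91, 14, 27 and 15.6 CPM. AT1G22930, AT5G17760, AT1G15130 and IQD14 rose by 1.41, 1.08, 0.86 and 0.70 at Deacc2. The last 3 lost their call without the libraries numbered 2, with adjusted p between 0.0581 and 0.105.

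EXT3 rose by 1.17 ± 0.382 at Deacc2 (adjusted p 0.00905) and by 0.89 ± 0.380 at Deacc4 (adjusted p 0.0399) relative to ACC. The Deacc2 call was lost without the libraries numbered 2, at 0.45 and adjusted p 0.285. The Deacc4 call was lost without the libraries of any 1 number, at adjusted p 0.0663 to 0.137, and with first-strand counts, at 0.0706. Of the 30 members that passed with the length trend out, 3 rose and 6 fell at Deacc2 and 4 rose and 6 fell at Deacc4, where 32.3% to 34.3% of all genes were called in each direction.

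Between the later stages no member passed the test. At Deacc4 relative to Deacc2, 0 of 392 rose or fell by edgeR, where 0.0387% of all genes rose and 0.00484% fell. At an unadjusted p under 0.05, 3 members were higher and 3 lower, where 4.8% and 4.97% of all genes were, and DESeq2 called 0 members. The median fold change over members was -0.03 (-1.19 to 0.84), and the standard error per gene ran from 0.148 to 0.521.

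The mutants were compared with Col0 over all conditions, and the rule set no bound on differences between lines. The rule did use the NonA libraries of each line, however, and these also enter this contrast. Taken alone, the mbf1c and jub1 libraries passed 333 and 311 members and the Col0 libraries 129. The number and direction of the members' line differences are therefore tied to the choice of members, and nothing is read from them. For reference, MBF1C had 0.278 to 2 CPM in the 12 mbf1c libraries and 0.712 to 5.36 in the 12 Col0 libraries. JUB1 had 0.423 to 1.56 CPM in jub1 and 0.664 to 10.5 in Col0. Neither gene is a member, and both ranges overlap when conditions are pooled. Within each condition, every mutant library lay below every Col0 library for the mutated gene. At Deacc2 the highest mutant and lowest Col0 libraries had 1.25 and 2.55 CPM of MBF1C, and 1.28 and 7.2 CPM of JUB1. In mbf1c relative to Col0, edgeR called 0 members in either direction, where 0.00967% of all genes rose and 0.0193% fell. At an unadjusted p under 0.05, 0 members were higher and 11 lower, where 5.42% and 2.56% of all genes were, and DESeq2 called 0. At that p the members lower in mbf1c numbered 23 with the replicate block (3.78% of all genes), 77 with the length trend out (4.1%) and 91 with both (5.75%). In the same 3 fits 0 members were higher, where 7.13%, 4.84% and 6.29% of all genes were, and after adjustment 0 members were called in either direction. In jub1 relative to Col0, 0 members were called, where 0.0145% of all genes rose and 0.0193% fell; 0 were higher and 17 lower at an unadjusted p under 0.05, where 5.29% and 4.11% of all genes were, and DESeq2 called 0. The fitted difference was below 0 for 388 of 392 members in each mutant, with medians of -0.27 in mbf1c and -0.36 in jub1, beside 0.04 and -0.006 over all genes. With the length trend out these medians were -0.159 and -0.062.

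The smallest adjusted p among members was 0.619 in mbf1c, which several members including EXT3 shared, and 0.497 in jub1, for AT4G12490 at -0.89 ± 0.291. EXT3 stood at -0.92 ± 0.330 in mbf1c and -0.75 ± 0.329 in jub1 (adjusted p 0.619 and 0.514). EXT4 stood at -0.74 and -0.79 and PR5 at -0.66 and -0.93. CIPK25 was among the 4 members above 0 in jub1, at 0.59 ± 0.318 (adjusted p 0.544). None of these passed the test. Standard errors ran from 0.129 to 0.454 per gene.

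Whether the stay above NonA differed between lines was tested as an interaction, the mutant's Deacc2 or Deacc4 difference from NonA minus that of Col0. The libraries that chose the members enter these contrasts too, so nothing is read from the direction of the members' medians. In all 4 such contrasts 0 members and 0% of all genes were called in either direction, with 0 members at an unadjusted p under 0.05. DESeq2 called 0 members in each. The medians over members were 0.04 for mbf1c and 0.38 for jub1 at Deacc2, and -0.03 for mbf1c and 0.02 for jub1 at Deacc4. Without the libraries of 1 number, the mbf1c medians ran from -0.479 to 1.035 at Deacc2 and from -0.57 to 0.584 at Deacc4. The jub1 medians then ran from 0.278 to 0.838 at Deacc2 and from -0.229 to 0.454 at Deacc4. Standard errors ran from 0.364 to 1.3 per gene, so these contrasts had little precision.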

How the data were processed

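Total RNA of whole rosettes was sequenced on the BGISEQ-500 platform, per the labels' protocols. The authors deposited unnormalized gene counts for every library. The submitters' processing notes name the aligner STAR 2.6.0c and the build TAIR10; no annotation release is given there. The authors' tables hold an unstranded column, used here, and 1 for each strand; the first strand held 50.4% to 52% of stranded counts. Reads outside single genes (ambiguous 3.13% to 5.86%, multimapping 2.54% to 5.2%, in no gene 0.286% to 0.837%, unmapped 0.399% to 1.31%) stayed out.

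CPM over gene rows with a pseudocount of 1 gave the members. Tests used edgeR 4.0.16 (R 4.3.3): filterByExpr by group, TMM, 1 quasi-likelihood model with 12 group terms over 36 libraries (common dispersion 0.1056) and Benjamini-Hochberg adjustment over 20679 genes at 0.05, for 9 contrasts. A check of the code used simulated independent counts of well-counted genes, with 1 common dispersion and no length slope. For Deacc4 relative to Deacc2 alone, it recovered 88 of 100 genes changed 2-fold and 100 of 100 changed 4-fold. It does not give the power of the other contrasts, or of libraries that differ in length slope. Alternatives were RLE factors, DESeq2 1.42.0, no filter, a replicate block, the first strand, replicate numbers or lines left out and a lowess trend (span 0.3) on exonic length taken out. Symbols, lengths and upstream windows came from RefSeq TAIR10.1, which names all 392 members; near copies were found with BLAST 2.17.0. Of 563 list symbols 520 were matched to 1 gene. Families were gathered by a search of annotated names, which may have missed some of their genes.

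The members, lists and families were chosen with earlier results of these data known. Named genes are the 10 members with the largest Deacc4 difference and the 10 with the highest Deacc4 CPM, members in the lists, up to 5 members called each way per contrast, and genes at the threshold; family members, the 30 genes passing without the length trend, and calls given for EXT3, EARLI1, GI, SPS1F, SPS2F, RBR1, TPL, GLDP2 and AT3G55410 were added after their values were seen. The replicate numbers pair the libraries of mbf1c and Col0: same-number libraries deviated together in 12 of 12 pairs (r 0.288 to 0.751). Pairing required r over 0.1 in every pair; the other contrasts, with 4 of 9 to 10 of 12 pairs over 0.1, did not meet this. No 2 libraries of a group were copies (smallest chi-square per degree of freedom 17.7). The p-values rest on the spread among such libraries, which may be technical.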

Additional observations from a re-analysis of the deposited data

How the results depend on the processing

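The number of members was 392. It was 190 with TMM factors, all of them among the 392, 25 at a threshold of 1.5 and 41 with the length trend taken out, 30 of them shared. It ranged from 113 to 674 without 1 replicate number and, in an alternative chosen after seeing the data, from 195 to 643 without a single library; mbf1c NonA 2 gave 195, mbf1c NonA 3 gave 235 and mbf1c NonA 1 gave 643. Other pseudocounts, the first strand, no ACC minimum and leaving out a line kept it between 295 and 475. The cause of these shifts was not tested.

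Members called at Deacc2 relative to ACC, 30 higher and 46 lower, became 181 higher (231 in both directions) with the length trend out and 187 higher (238) with that trend and the replicate block. They ranged from 5 to 27 higher and 15 to 142 lower (36 to 147 in both directions) without 1 replicate number. At Deacc4 relative to ACC, 23 higher became 202 (251 in both directions) with the length trend out and 206 (257) with the block as well, and without 1 replicate number 7 to 32 were higher and 23 to 53 lower (30 to 68). At Deacc4 relative to Deacc2, 1 member was called higher with the length trend out and the replicate block. The replicate block alone gave 28 higher and 53 lower at Deacc2 and 29 higher and 50 lower at Deacc4, relative to ACC, and changed no member call between lines. Of 380 tested values of named genes under an alternative, 358 kept their direction and side of the threshold and 22 lost significance. All 385 Deacc4 differences of named members under an alternative kept their direction and moved by less than the SD of that gene's Deacc4 libraries. That bound is wide where the libraries vary widely, so it does not show that the differences kept their size. These members were chosen for that difference, and the alternatives used the same libraries or most of them. Nothing is therefore read from the kept direction. With the length trend out, the median Deacc4 difference over all 392 members was 0.64, against 1.19, and 59 members stayed at 1 or more. Counting error alone is small at these depths, and 3 libraries per group limit precision.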
